A study of Mus musculus with 11 samples.

Results

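Chloride transporters and channels of the mouse dorsal root ganglion (DRG) were followed in RNA-Seq data as 8 genes: *Slc12a2*, *Slc12a5*, *Slc12a7*, *Ano1*, *Ano3*, *Clcn3*, *Clcn6* and *Wnk1*. They were picked by gene symbol for their known roles in chloride handling, and all 8 were found among the 36670 genes of the deposited table. In a DRG, the cell bodies of sensory neurons are wrapped by satellite glial cells, and Schwann cells line the axons. Libraries of poly(A) RNA from 11 mice fell into 4 groups. WT control mice (n = 3) and WT mice labelled 4 weeks after paclitaxel (PTX, a microtubule drug of cancer chemotherapy whose side effects include neuropathic pain; n = 3) were sequenced beside *Gpr37l1* KO control mice (n = 3) and *Gpr37l1* KO mice labelled 4 weeks after PTX (n = 2). The KO mice carried a targeted germline allele of *Gpr37l1*, which encodes a G protein-coupled receptor of satellite glia, and the study's methods describe the WT mice as littermates on a C57BL/6 background. In the samples' numbering, mouse 3 of each group was female and the other mice were male, so sex and the number 3 cannot be told apart. The control groups carry the label Control, and neither a vehicle nor a PTX dose is stated for the sequenced mice. Each library is called a mouse here because it has its own label and sex. P-values measure the spread between these libraries.

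Chloride gradients set whether GABA excites or inhibits a neuron. The cotransporter NKCC1, encoded by *Slc12a2*, brings chloride into cells together with sodium and potassium, whereas the potassium-chloride cotransporters KCC2 (*Slc12a5*) and KCC4 (*Slc12a7*) carry it out. Mature central neurons rely on KCC2, whereas DRG neurons keep their chloride high through NKCC1 and are depolarized by GABA. The kinase WNK1 senses chloride and cell volume and, through the kinases SPAK and OSR1, activates NKCC1 and inhibits the KCCs. ANO1 is a calcium-activated chloride channel of nociceptors. ANO3 is an anoctamin of the same family that has been linked to lipid scrambling and to the control of a sodium-activated potassium channel rather than to a chloride current of its own. CLC-3 and CLC-6, encoded by *Clcn3* and *Clcn6*, exchange chloride for protons across the membranes of endosomes.

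Promoter sequences are shown for the 2 members whose levels varied most between mice, *Slc12a5* and *Ano3*, and for the one that varied least, *Clcn6*. They come from RefSeq on GRCm38.p6 and cover 250 bases before and 50 bases after an annotated transcript start, read 5′ to 3′ on the gene's own strand. RefSeq windows were at hand for 7 of the 8 members (11 windows), and for *Slc12a2* none was used. Capitals mark the letters CACGTG, the E-box bound by clock and MYC family factors, the letters TATAAA and the letters GGGCGG, the GC box, each searched on both strands. A GC box on the opposite strand therefore reads CCGCCC. The window of *Ano3* at chr2:110950195-110950494 on the minus strand lies inside the gene as the table places it, and the windows of *Slc12a5* at chr2:164960596-164960895 on the plus strand and of *Clcn6* at chr4:148038764-148039063 on the minus strand span the start of the gene.
Ano3: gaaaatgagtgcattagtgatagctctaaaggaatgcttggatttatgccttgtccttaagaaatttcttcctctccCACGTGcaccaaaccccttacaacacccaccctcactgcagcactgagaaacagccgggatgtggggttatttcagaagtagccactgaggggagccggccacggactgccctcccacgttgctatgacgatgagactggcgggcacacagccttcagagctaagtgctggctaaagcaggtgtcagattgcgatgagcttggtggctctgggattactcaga
Slc12a5: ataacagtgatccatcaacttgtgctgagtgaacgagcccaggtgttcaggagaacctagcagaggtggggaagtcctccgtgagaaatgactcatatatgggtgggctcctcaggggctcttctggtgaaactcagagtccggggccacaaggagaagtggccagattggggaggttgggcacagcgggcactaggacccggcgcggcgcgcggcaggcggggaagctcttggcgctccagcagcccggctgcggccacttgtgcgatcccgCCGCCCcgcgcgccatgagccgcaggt
Clcn6: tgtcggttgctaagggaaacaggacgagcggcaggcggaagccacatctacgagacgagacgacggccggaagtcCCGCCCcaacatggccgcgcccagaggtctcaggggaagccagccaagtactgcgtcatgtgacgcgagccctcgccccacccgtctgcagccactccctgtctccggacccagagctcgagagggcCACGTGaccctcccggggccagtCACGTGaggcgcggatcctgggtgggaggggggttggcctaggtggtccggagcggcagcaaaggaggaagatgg

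The window of *Ano3* held 1 E-box, no GC box and 8 CpG dinucleotides at a GC content of 52.0%. That of *Slc12a5* held 1 GC box, no E-box and 21 CpGs at 63.7% GC. That of *Clcn6* held 2 E-boxes, 1 GC box and 26 CpGs at 67.3% GC. None of these 3 windows held TATAAA. *Ano3* and *Slc12a5* each have a second RefSeq window with other letters: that of *Ano3* held 1 TATAAA, no E-box and 4 CpGs, and that of *Slc12a5* held 1 E-box, 1 GC box and 21 CpGs. Of 32851 RefSeq windows of the same length, 7.15% held CACGTG, 13.6% held TATAAA and 35.7% held GGGCGG on either strand. These matches describe letters only.

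In the deposited table (mm10, the same assembly as GRCm38), *Ano3* spans 110655201 to 110950923 of chromosome 2 on the minus strand, and 18188 bases of it overlap *Muc15*, a mucin gene on the opposite strand. *Slc12a5* spans 164960802 to 164999727 of chromosome 2 and *Slc12a7* spans 73733094 to 73816754 of chromosome 13, both on the plus strand, and *Slc12a2* lies on the plus strand of chromosome 18. *Ano1* spans 144588549 to 144738592 of chromosome 7, *Clcn3* 60910389 to 60983300 of chromosome 8, *Clcn6* 148004259 to 148038821 of chromosome 4 and *Wnk1* 119923969 to 120038672 of chromosome 6, all on the minus strand. Opposite-strand pseudogenes lie within *Clcn6* (*Gm13207*, 773 bases shared) and *Wnk1* (*Gm16199*, 288 bases), and *Wnk1* also contains the microRNA gene *Mir706*. The library kit keeps strand, but whether the counting used it is not given in the sources used here. All 8 are protein-coding genes.

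The authors' estimated read counts summed to 52735648 to 80348732 per library (median 75538569), and both KO PTX libraries, at 54914928 and 56747335, were among the shallow ones. The targeted gene *Gpr37l1* ranged from 0.21 to 1.15 FPKM over the 5 KO mice and from 14.6 to 35.7 FPKM over the 6 WT mice. FPKM, as deposited, is a level per length of transcript and per size of library. All 11 sensory neuron markers and all 6 satellite glia markers were present in every group, with summed levels of 2576 to 3240 FPKM and 236 to 376 FPKM. Mouse 3 of the KO PTX group stood apart in 12 markers of central nervous tissue, which summed to 24.4 FPKM there against 2.32 to 7.46 FPKM in the other 10 mice. Each fold change, ratio and order of levels was also computed without it.

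The members covered a wide range of levels. Mean FPKM over the 11 mice was 33.6 for *Ano3*, 21.5 for *Clcn6*, 11.8 for *Slc12a2*, 9.54 for *Wnk1*, 6.92 for *Clcn3*, 2.25 for *Slc12a7*, 2.05 for *Ano1* and 0.42 for *Slc12a5*. Of the 34133 genes with a mean FPKM above 0, 96.1% lay below *Ano3*, 88.5% below *Slc12a2* and 54.4% below *Slc12a5*. The chloride loader NKCC1 was thus far above both extruders, and the anoctamin without an established chloride current was far above the calcium-activated channel ANO1.

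Neighbours in this order were compared within mice by flipping the signs of the differences in all ways, an exact permutation test (two-sided) of the log2 ratio of FPKM + 0.1, with Benjamini-Hochberg adjustment over 7 pairs. The order, and so the pairs and their direction, came from the same FPKM values. The p-values therefore describe how steady each difference was between mice and give no independent support for the order. *Ano3* exceeded *Clcn6* by 0.62 ± 0.29 on the log2 scale (SD, n = 11), in 10 of 11 mice (exact permutation test, adjusted p = 0.00228). *Clcn6* exceeded *Slc12a2* by 0.87 ± 0.13, *Slc12a2* exceeded *Wnk1* by 0.29 ± 0.10, *Wnk1* exceeded *Clcn3* by 0.46 ± 0.09 and *Clcn3* exceeded *Slc12a7* by 1.58 ± 0.17. Each of these 4 differences was found in 11 of 11 mice (exact permutation test, adjusted p = 0.00171). The smallest p the test allows is 0.000977. *Ano1* exceeded *Slc12a5* by 2.53 ± 1.14 in 10 of 11 mice (exact permutation test, adjusted p = 0.00228), and mouse 3 of the KO PTX group was the exception. *Slc12a7* and *Ano1* were not resolved: the difference was 0.13 ± 0.20, with *Slc12a7* higher in 8 of 11 mice (exact permutation test, adjusted p = 0.0615). It passed 0.05 without mouse 2 of the KO controls (0.16, exact permutation test, adjusted p = 0.0215) and without mouse 2 of the KO PTX group (0.16, exact permutation test, adjusted p = 0.0254).

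**Figure D1:**
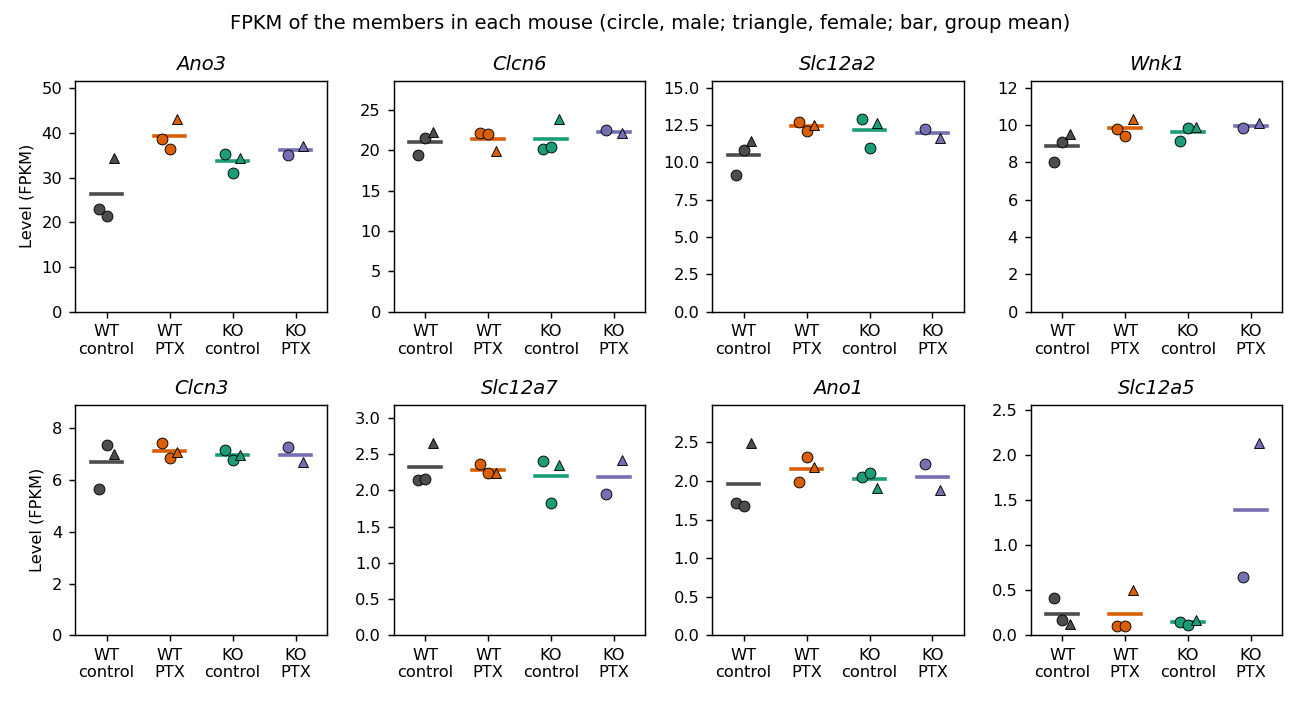
Level of each of the 8 genes in FPKM (y axis, linear from 0, a separate scale for each gene) in every mouse, by group (x axis). Circles are male mice, triangles female mice and bars group means. *Ano3* is lowest in 2 WT control mice, at 21.4 and 23.1 FPKM, and *Slc12a5* is highest in the 2 KO PTX mice, whereas *Clcn6* stays between 19.4 and 23.8 FPKM throughout.

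Spread over the 11 mice also differed between the members. The coefficient of variation of FPKM was 142% for *Slc12a5*, 19.0% for *Ano3*, 12.1% for *Ano1*, 10.2% for *Slc12a7*, 9.40% for *Slc12a2*, 7.00% for *Clcn3*, 6.53% for *Wnk1* and 6.19% for *Clcn6*. The endosomal exchangers and WNK1 were therefore the steadiest, and KCC2 the least steady.

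The first comparison asked how the members' mRNA differed between PTX and control in WT DRGs. Group differences were tested with edgeR's quasi-likelihood test on the counts, with sex as a covariate and Benjamini-Hochberg adjustment over 15087 genes, those whose mean FPKM reached 0.5. *Slc12a5* lay below that level, so 7 of the 8 members were tested. None of the 7 passed an adjusted p of 0.05. At an unadjusted p under 0.05 there were 2, *Ano3* and *Slc12a2*, and in the same 2 genes the FPKM of the groups did not overlap. Over all genes tested, 0.00663% passed the adjusted threshold (1 gene, *Per3*), 13.5% the unadjusted one in either direction, and 14.2% had groups that did not overlap. The members' median log2 fold change was 0.14, with 6 of 7 above 0, against -0.01 over all genes.

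*Ano3* stood at 23.1, 21.4 and 34.4 FPKM in mice 1, 2 and 3 of the WT controls and at 38.7, 36.4 and 43.0 FPKM in those of the WT PTX group. Both males of the control group were low, the control female was near the PTX mice, and the groups did not overlap. The 2 male mice with PTX were above the 2 male controls, and the female with PTX was above the female control. The log2 fold change was 0.60 ± 0.11 (SE), or 1.51-fold with a 95% interval of 1.27 to 1.80 (edgeR, Benjamini-Hochberg adjusted p = 0.203). It was positive under all 19 alternative settings, at 0.50 to 0.77, with adjusted p from 0.000191 to 0.685 (edgeR, DESeq2 or limma). The call depended on the tool and on 1 mouse. DESeq2 called *Ano3* (log2 fold change 0.60, adjusted p = 0.000191) as 1 of 309 genes, 2.05% of those tested. Without mouse 3 of the WT controls, edgeR's quasi-likelihood test also called it (log2 fold change 0.77, adjusted p = 0.0360), as 1 of 30 genes (0.199%).

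*Slc12a2* stood at 9.19, 10.9 and 11.4 FPKM in the WT controls and at 12.7, 12.1 and 12.5 FPKM in the WT PTX group. The PTX mice lay close together above all 3 controls, and control mouse 1 was the lowest of all 11 mice. The log2 fold change was 0.25 ± 0.08 (SE), or 1.19-fold with an interval of 1.05 to 1.35 (edgeR, Benjamini-Hochberg adjusted p = 0.288). In bulk tissue, less RNA per cell and fewer cells of a type cannot be told apart. The 6 macrophage markers summed to 13.5 to 15.8 FPKM in the WT controls and 9.18 to 11.3 FPKM in the WT PTX group, which did not overlap, and none of the 6 was at 0. *Cd68* did not follow the sum, at 2.28, 2.84 and 2.08 FPKM in the WT controls and 2.38, 2.5 and 1.92 FPKM with PTX. *Aif1*, *Csf1r*, *Cx3cr1*, *Adgre1* and *Mrc1* were each lower with PTX, without overlap. The part of the macrophage markers in the values of *Ano3* and *Slc12a2* was not tested. The 11 sensory neuron markers summed to 2626 to 3240 FPKM in controls and 2576 to 2668 FPKM with PTX, and the 8 muscle markers to 14.7 to 501 FPKM and 3.03 to 171 FPKM; both overlapped.

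*Wnk1* stood at 8.04, 9.06 and 9.51 FPKM in the WT controls and at 9.80, 9.40 and 10.3 FPKM in the WT PTX group. The groups overlapped by 1 mouse, and the log2 fold change was 0.15 ± 0.07 (SE; edgeR, Benjamini-Hochberg adjusted p = 0.373). The 4 remaining members were closer to 0. *Ano1*, at 1.71, 1.68 and 2.49 FPKM against 1.99, 2.31 and 2.18 FPKM with PTX, had a log2 fold change of 0.14 with a 95% interval that spans 0. That value ran from 0.041 without mouse 2 of the WT controls to 0.37 without mouse 3, and was 0.070 without mouse 1 of the WT controls and 0.081 without mouse 2 of the WT PTX group. As for *Ano3*, the 2 control males were the low mice and the control female was not. *Clcn3* ranged from 5.65 to 7.35 FPKM in controls and from 6.83 to 7.41 FPKM with PTX, with a log2 fold change of 0.09. *Clcn6* ranged from 19.4 to 22.3 FPKM and from 19.98 to 22.2 FPKM, with 0.02. *Slc12a7* ranged from 2.14 to 2.65 FPKM and from 2.24 to 2.36 FPKM, with -0.02. Among the transporters that set the plasma membrane gradient, mRNA of the loader NKCC1 was therefore higher in each of the 3 PTX mice than in any control, while the levels for KCC4 overlapped.

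**Figure D2:**
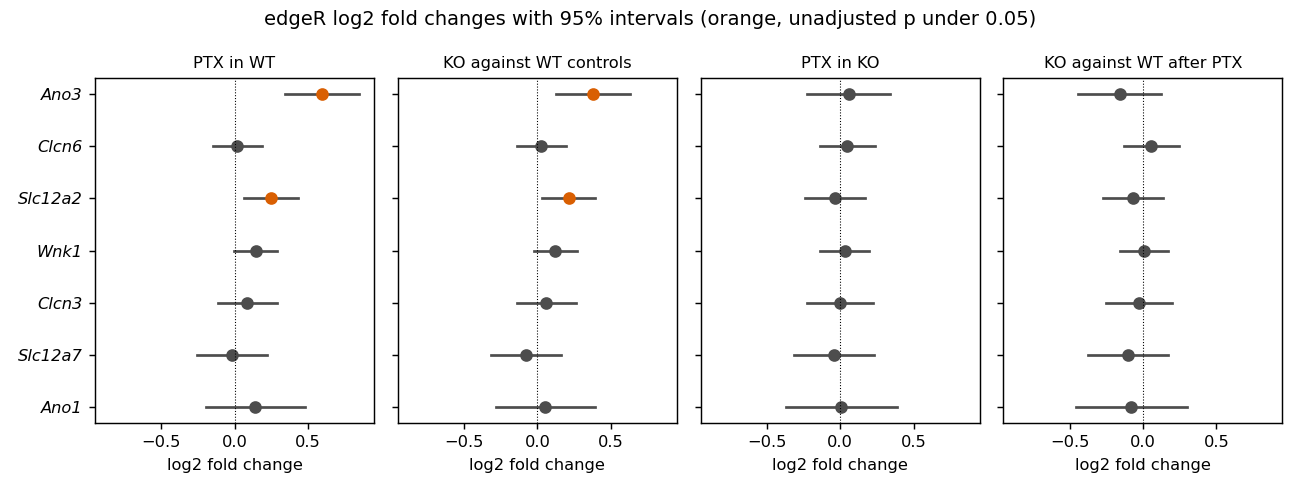
Log2 fold change (x axis) of the 7 tested members (y axis) in the 4 group comparisons, from edgeR; points are estimates, lines 95% intervals, and orange marks an unadjusted p under 0.05. *Ano3* and *Slc12a2* lie to the right of 0 in the WT PTX comparison (0.60 and 0.25) and in the comparison of controls (0.38 and 0.21), and all 7 lie near 0 in the KO PTX comparison.

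The same 2 genes had the lowest p among the members when KO controls were compared with WT controls, which asked what loss of the receptor alone was accompanied by. This comparison shares the WT control mice with the first, so the 2 are not independent. *Ano3* stood at 35.4, 31.1 and 34.4 FPKM in the KO controls, all above the 2 low WT controls and around the third (log2 fold change 0.38 ± 0.11 SE; edgeR, Benjamini-Hochberg adjusted p = 0.657). *Slc12a2* stood at 12.9, 10.9 and 12.6 FPKM, with 1 KO mouse inside the WT range (log2 fold change 0.21 ± 0.08 SE; edgeR, Benjamini-Hochberg adjusted p = 0.657). Without mouse 1 of the WT controls the *Slc12a2* value was 0.14, and without mouse 3 of the WT controls it was 0.26. Of the 7 members, 0 passed the adjusted threshold in edgeR and 0 in DESeq2, 2 passed the unadjusted one, and 0 had groups that did not overlap. Over all genes these shares were 0.00663% (1 gene, *Gpr37l1*), 0.278% in DESeq2, 7.54% and 9.28%. The 5 other members had log2 fold changes from -0.08 for *Slc12a7* to 0.12 for *Wnk1*. Summed macrophage markers were 10.98 to 13.1 FPKM in the KO controls, again below the WT controls. Singly, *Aif1*, *Csf1r* and *Adgre1* were lower without overlap, whereas *Cd68*, *Cx3cr1* and *Mrc1* overlapped between the control groups. The part of the macrophage markers was not tested.

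In KO mice, PTX and control were close for every tested member. *Ano3* stood at 35.1 and 37.2 FPKM in mice 2 and 3 of the KO PTX group, above or within the KO control range, with a log2 fold change of 0.06 (95% interval -0.23 to 0.34). *Slc12a2* stood at 12.3 and 11.6 FPKM, inside the KO control range, with a log2 fold change of -0.03 (95% interval -0.24 to 0.17). *Wnk1* was at 9.83 and 10.1 FPKM against 9.16 to 9.91 FPKM, *Clcn6* at 22.5 and 22.1 FPKM against 20.2 to 23.8 FPKM, and *Clcn3* at 7.27 and 6.67 FPKM against 6.75 to 7.15 FPKM. *Ano1* was at 2.22 and 1.89 FPKM against 1.91 to 2.11 FPKM, and *Slc12a7* at 1.95 and 2.42 FPKM against 1.83 to 2.41 FPKM. The 7 log2 fold changes lay between -0.04 and 0.06 (edgeR, Benjamini-Hochberg adjusted p = 0.999 for each). None passed an adjusted p of 0.05 in edgeR or DESeq2, none passed an unadjusted p of 0.05, and none had groups that did not overlap, against 0.00663% (1 gene, *Pde10a*), 0.192%, 4.32% and 21.6% of all genes. With 2 KO PTX mice, these intervals still allow changes of the size seen in WT for *Slc12a7*, *Ano1*, *Clcn3*, *Clcn6* and *Wnk1*, whereas those of *Ano3* and *Slc12a2* end below the WT estimates. The WT estimates have 95% intervals of their own, 0.34 to 0.85 for *Ano3* and 0.066 to 0.43 for *Slc12a2*. That of *Slc12a2* overlaps its KO interval. A difference between the genotypes is therefore not shown here, and its direct test is the interaction below.

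After PTX, KO and WT mice were likewise close. The 7 log2 fold changes ran from -0.16 for *Ano3* to 0.06 for *Clcn6* (edgeR, lowest Benjamini-Hochberg adjusted p = 0.993). For *Ano3* the value was -0.25 without mouse 2 of the KO PTX group and -0.07 without mouse 3 of that group. Again 0 members passed the adjusted threshold in edgeR or DESeq2, 0 the unadjusted one, and 0 had groups apart, where all genes gave 0.0133% (2 genes, *Gpr37l1* and *Pde10a*), 0.0663%, 3.55% and 20.2%. The difference between the PTX responses of the 2 genotypes was tested as an interaction. It was -0.54 ± 0.17 (SE) on the log2 scale for *Ano3* (edgeR, Benjamini-Hochberg adjusted p = 0.724) and -0.28 ± 0.12 for *Slc12a2* (edgeR, Benjamini-Hochberg adjusted p = 0.724). No member passed the adjusted threshold in edgeR or DESeq2 (0.00663% and 0.0795% of all genes), and these 2 passed the unadjusted one, as did 6.3% of all genes. The WT control mice, in which *Ano3* and *Slc12a2* were lowest, enter the interaction as well as the 2 comparisons above.

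*Slc12a5*, the KCC2 gene, behaved differently from the rest. It stood at 0.41, 0.17 and 0.13 FPKM in the WT controls, 0.10, 0.10 and 0.50 FPKM in the WT PTX group, 0.15, 0.11 and 0.17 FPKM in the KO controls, and 0.65 and 2.13 FPKM in mice 2 and 3 of the KO PTX group. Its estimated counts ranged from 63 to 972. Both KO PTX mice lay above every other mouse, and mouse 3 was more than 3 times mouse 2. Its fold changes come from the same edgeR model run without the filter, on 34503 genes. The log2 fold change of PTX in KO was 2.90 ± 0.63 (SE), or 7.48-fold with a 95% interval of 2.90 to 19.3 (edgeR, Benjamini-Hochberg adjusted p = 0.948). The unadjusted p was under 0.05, as for 3.48% of all genes in that fit. The value was 2.42 without mouse 3 of the KO PTX group and 3.39 without mouse 2 (edgeR, adjusted p = 1.0 for both), and DESeq2 gave 2.90 with an adjusted p of 0.0716. On the log2(FPKM + 1) scale, which understates changes at such low levels, limma gave 0.95 (adjusted p = 0.687), and on log2(FPKM + 0.1) it gave 2.32 (adjusted p = 0.754). KO against WT after PTX gave 2.50 ± 0.60 (edgeR, Benjamini-Hochberg adjusted p = 1.0; it passed the unadjusted threshold with 2.67% of all genes). PTX in WT gave -0.47 ± 0.59 and KO against WT controls -0.87 ± 0.56, both with intervals that span 0. The comparison of controls rested on mouse 1 of the WT controls, the one of its group with the most central nervous tissue RNA: without it the value was -0.027, and it was -1.47 without mouse 3 of the WT controls. The interaction was 3.37 ± 0.82 (edgeR, Benjamini-Hochberg adjusted p = 0.978). None of these values passed the adjusted threshold.

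The mice with more *Slc12a5* were those with more RNA of central nervous tissue. The 12 markers, of oligodendrocytes, astrocytes and inhibitory neurons and including *Mog*, *Mobp*, *Gad1* and the glycine transporter gene *Slc6a5*, summed to 6.17, 2.32 and 3.5 FPKM in the WT controls, 3.46, 3.42 and 7.46 FPKM in the WT PTX group, 3.14, 3.92 and 3.44 FPKM in the KO controls and 7.24 and 24.4 FPKM in the KO PTX group. The mice fell into 2 sets, 7 with 2.32 to 3.92 FPKM and 4 with 6.17 to 24.4 FPKM, so no correlation was computed over all of them. *Slc12a5* was at 0.10 to 0.17 FPKM in the 7 and at 0.41 to 2.13 FPKM in the 4. The 4 were mouse 1 of the WT controls, mouse 3 of the WT PTX group and both KO PTX mice. This split, at 5 FPKM, was chosen after the values were seen and was not tested. The same 4 mice had the shallowest libraries, at 52735648 to 56747335 estimated counts, against 68821582 or more in the 7. No relation was read within the 7 mice. There most of the sum came from *Aqp4* and *Slc6a11*, at 0.88 FPKM or more in every mouse, while the oligodendrocyte and inhibitory neuron markers were each at 0.25 FPKM or less. Markers at 0 in all mice of a group were *Slc6a5* in the WT controls, *Olig2* and *Slc6a5* in the WT PTX group, *Opalin* and *Slc32a1* in the KO controls, and none in the KO PTX group. The myelin gene *Mobp* was at 6.11 FPKM in mouse 3 of the KO PTX group and at 1.16 FPKM in mouse 2, against 0.07 to 0.25 FPKM in the KO controls. The parts of central tissue and of library depth in the *Slc12a5* values were not tested.

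**Figure D3:**
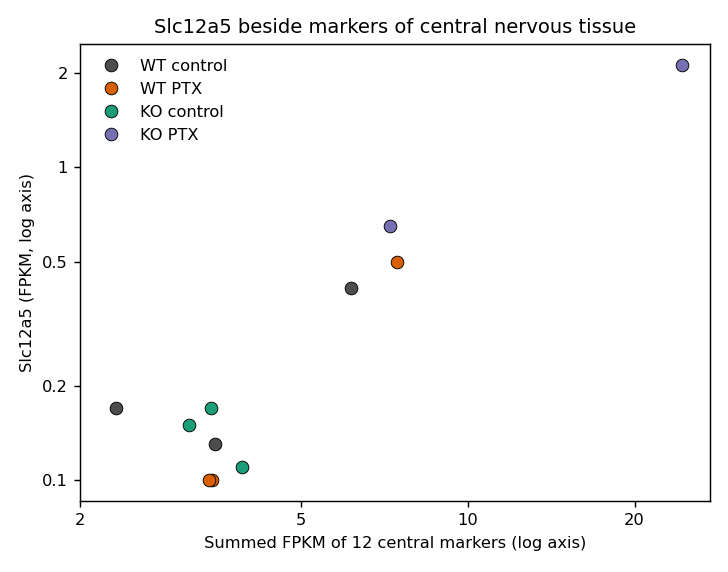
Level of *Slc12a5* (y axis, FPKM, log axis) against the summed level of 12 markers of central nervous tissue (x axis, FPKM, log axis) in the 11 mice, coloured by group. The 7 mice at 2.32 to 3.92 FPKM of markers lie at 0.10 to 0.17 FPKM of *Slc12a5*, and the 4 mice from 6.17 FPKM upward lie at 0.41 FPKM or more.

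The balance of loading and extrusion was taken as the log2 ratio of *Slc12a2* to *Slc12a5* within each mouse, on FPKM + 0.1. It was 4.19, 5.34 and 5.65 in the WT controls, 6.00, 5.94 and 4.39 in the WT PTX group, 5.70, 5.72 and 5.56 in the KO controls, and 4.04 and 2.40 in the KO PTX group. NKCC1 mRNA thus exceeded KCC2 mRNA in every mouse, from 5.26-fold in mouse 3 of the KO PTX group to 64.2-fold in mouse 1 of the WT PTX group. The 5 PTX mice were 0.80 below the 6 control mice on average, at 4.55 ± 1.496 against 5.36 ± 0.59 (SD), and the 2 sets overlapped (exact permutation test over 462 splits, p = 0.271, Benjamini-Hochberg adjusted p = 0.455). The 5 KO mice were 0.57 below the 6 WT mice, at 4.68 ± 1.46 against 5.25 ± 0.78 (SD; exact permutation test, p = 0.455, adjusted p = 0.455). The genotypes differed in direction: the group mean was 5.44 with PTX against 5.06 in WT mice and 3.22 against 5.66 in KO mice, a difference that was not tested. Without mouse 3 of the KO PTX group, the PTX difference was -0.26 (exact permutation test, adjusted p = 0.995) and the genotype difference was 0.0026, with the sign turned.

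**Figure D4:**
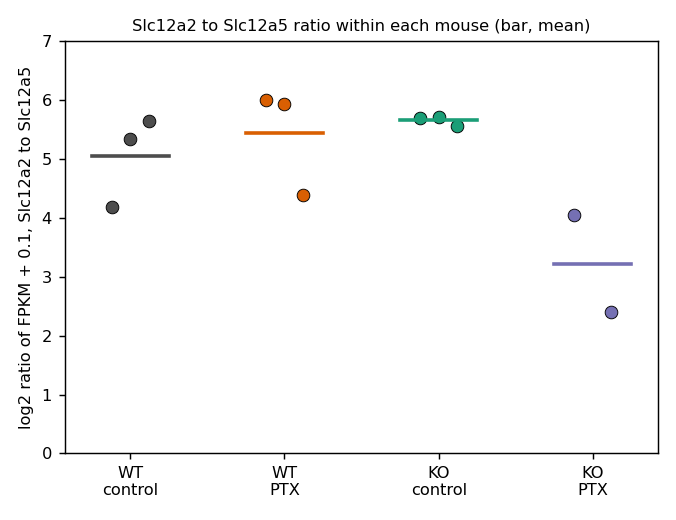
Log2 ratio of *Slc12a2* to *Slc12a5* within each mouse (y axis, FPKM + 0.1, from 0) by group (x axis); points are mice and bars group means. Every mouse lies above 0, and the 2 KO PTX mice, at 4.04 and 2.40, are the lowest.

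Among the 7 filtered members, mice with more *Ano3* also had more *Slc12a2*. The Pearson r of log2 CPM, the TMM-scaled counts relative to library size, over the 11 libraries was 0.80 for this pair, the highest of 21 pairs, and the lowest was -0.09 for *Slc12a7* and *Wnk1*. Over the whole table, the genes most like each member by the same measure were *Acpp* (0.98), *D130079A08Rik* and *Gm527* for *Ano3*, and *Adgrg2* (0.98), *Dmxl1* and *Abca5* for *Slc12a2*. They were *Adam9* (0.98), *Sgcb* and *Nckap1* for *Clcn3*, *Usp8* (0.98), *Esf1* and *Gpbp1* for *Wnk1*, *Cma1* (0.93), *Fhl2* and *Igf2* for *Slc12a7*, *Gm7327* (0.91), *Vstm2b* and *Gm3854* for *Clcn6*, and *Ppargc1a* (0.91), *Zfp607b* and *Cyb5d2* for *Ano1*. *Acpp* encodes the acid phosphatase of non-peptidergic nociceptors, and *Cma1* a mast cell protease. These r values are descriptions over 11 libraries that share groups, sex and depth, picked as the highest among 15087 genes.

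Beside the members, 45 other genes of chloride handling were followed, all present in the table, of which 29 reached a mean of 0.5 FPKM. None of the 29 passed the adjusted threshold in any of the 5 comparisons in edgeR, DESeq2 or limma. At an unadjusted p under 0.05, edgeR gave 1 up and 4 down for PTX in WT, 0 up and 2 down for PTX in KO, 1 up and 2 down for KO against WT controls, and 0 for the other 2 comparisons. Over all genes, 13.5%, 4.32% and 7.54% passed in the first 3 of these. Of the 29, groups did not overlap in 8 genes between WT PTX and WT control mice, 4 between KO PTX and KO control mice, 7 between the control groups and 2 between the PTX groups, where all genes gave 14.2%, 21.6%, 9.28% and 20.2%. *Slc26a6*, an anion exchanger gene, was at 1.16, 1.37 and 1.34 FPKM in the WT controls and at 1.03, 1.08 and 0.91 FPKM with PTX (log2 fold change -0.36; edgeR, adjusted p = 0.320), and at 0.97 to 1.04 FPKM in the KO controls. The kinase gene *Wnk4* (-0.37) and the bestrophin gene *Best1* (0.34) were the other extremes of PTX in WT, with adjusted p of 0.389 and 0.505 (edgeR). In KO mice, PTX gave -0.27 for the channel gene *Clcn2* and -0.25 for the cotransporter-family gene *Slc12a9*, against 0.13 for *Wnk2* and 0.10 for the volume-regulated channel gene *Lrrc8a*. *Best1* (0.39) and *Ano10* (-0.22) were further extremes of KO against WT controls. After PTX, KO against WT gave 0.19 for *Wnk4*, 0.13 for *Lrrc8a*, -0.15 for *Clcn2* and -0.09 for *Lrrc8b*. In the interaction, *Slc26a6* (0.41) and *Wnk4* (0.36) were highest, and *Best1* (-0.44) and *Clcn2* (-0.29) lowest.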

How the data were processed

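Groups, sex and replicate numbers came from the sample labels. The titles number the 2 KO PTX libraries differently from the descriptions, whose numbers were used. The members and gene lists were chosen with earlier results of these data known. The authors deposited 1 table with FPKM and estimated counts per gene, aligned to mm10. The submitters' processing notes name cutadapt, FastQC, HISAT2 and StringTie, without settings. Of the gene identifiers, 36532 were found in GENCODE M21. Group comparisons used edgeR 4.0.16 in R 4.3.3 on the authors' estimated counts, with TMM scaling, the quasi-likelihood test, all 11 libraries in one fit, sex as a covariate, genes whose mean FPKM reached 0.5 and a threshold of 0.05 after Benjamini-Hochberg adjustment. The model was tested on simulated data. Intervals of fold changes used the fit's own degrees of freedom. The members were named in every comparison. Of the 45 other chloride genes, the 2 highest and 2 lowest log2 fold changes in each comparison were named, apart from values not reported here, and of the whole table the 3 genes most correlated with each member. *Per3* and *Pde10a* were chosen after their values were seen. The alternatives were another scaling, DESeq2 1.42.0, limma 3.58.1 on log2(FPKM + 1) and log2(FPKM + 0.1), no sex covariate, a replicate block, only the groups compared, no filter, and each library left out in turn. Ratios and levels used Python 3.11.15 and scipy 1.17.1.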

Additional observations from a re-analysis of the deposited data

How the results depend on the processing

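Of 747 alternative values of the members' 40 log2 fold changes, 49 turned sign, 40 of them with 1 library left out, and 2 became called, both *Ano3* for PTX in WT. No member was called in another comparison by DESeq2 or limma. Apart from *Slc12a5*, no value of over 0.134 on the log2 scale turned sign. For PTX in WT, *Slc12a5* was 0.33 without WT control 1, *Slc12a7* 0.031 and 0.049 without WT control 3 or WT PTX 3, *Clcn3* -0.017 without WT control 1, and *Clcn6* -0.023, -0.012 and -0.0049 without WT control 1, WT PTX 1 or WT PTX 2. Left-out libraries gave ranges of -1.21 to 0.33, -0.069 to 0.049, -0.017 to 0.17 and -0.023 to 0.079 for these 4. For PTX in KO, *Slc12a2* was 0.020 and 0.038 without KO control 1 or KO PTX 3 (range -0.10 to 0.038) and *Ano3* -0.053 and -0.037 without KO control 3 or KO PTX 2 (range -0.053 to 0.15). KO against WT after PTX was 0.0016 for *Slc12a2* without KO PTX 3 (range -0.14 to 0.0016). The cause was not tested.

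Called genes over the whole table numbered 1 for PTX in WT, PTX in KO, KO against WT controls and the interaction, and 2 for KO against WT after PTX. DESeq2 called 309, 29, 42, 12 and 10. For PTX in WT, 0 were called without the sex covariate or in either limma fit, 5 with only the groups compared and 2 without the filter. With only the groups compared, PTX in KO had 4 calls and KO against WT after PTX had 5. With 1 library left out, the counts ranged from 0 to 30 for PTX in WT (30 without WT control 3, 0 without WT control 1, WT PTX 1, WT PTX 2 or KO PTX 3), 1 to 7 in PTX in KO (7 without KO control 2 or KO PTX 2), 1 to 4 in KO against WT controls (4 without KO control 3), 2 to 7 in KO against WT after PTX (7 without KO PTX 2) and 1 to 6 in the interaction (6 without KO PTX 2).

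With a library left out, *Slc12a7* exceeded *Ano1* by 0.11 to 0.16, the ratio of *Slc12a2* to *Slc12a5* differed between KO and WT mice by -0.83 to 0.0026, and Pearson's r of *Slc12a5* with the summed central markers in the 7 mice low in them, -0.61 with all 7, ranged from -0.80 to -0.41. Most of that sum came from *Aqp4* and *Slc6a11*, so nothing was read from this r.

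Same-numbered mice of different groups are different animals, so the numbers were not taken as pairs. The correlation of their deviations from the group means was -0.16 to 0.25 over 15 pairs, above 0.1 in 7. Every pair of mice numbered 3, the females, was above 0, at 0.036 to 0.25. With 2 KO PTX mice, the deviations of that group mirror each other, so the 15 values are not independent and do not decide whether the numbers share a source. With the replicate block, the counts of called genes were 1, 1, 1 and 1, and 2 for KO against WT after PTX, as without it. *Slc12a5* was estimated from 63 to 972 counts, and KO PTX rests on 2 mice, which limits both.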

Other observations

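Of the 45 other chloride genes, 16 had a mean under 0.5 FPKM, and their low levels are part of the picture of the ganglion. *Cftr*, the channel gene of cystic fibrosis, and *Bsnd*, which encodes a channel subunit of kidney and inner ear, had mean levels of 0.0055 and 0.0036 FPKM and at most 0.02 FPKM in any mouse. The kidney cotransporter genes *Slc12a1* (0.0727 FPKM) and *Slc12a3* (0.34 FPKM) and the muscle channel gene *Clcn1* (0.259 FPKM) were also low. Of the kinases, *Stk39*, which encodes SPAK, stood highest at 43.1 FPKM, with 13.8 FPKM for *Oxsr1* (OSR1) and 0.303 FPKM for *Wnk3*. The volume-regulated channel subunits *Lrrc8a*, *Lrrc8b*, *Lrrc8c* and *Lrrc8d* had 8.37 to 15.1 FPKM, and *Lrrc8e* 0.0964 FPKM. Of the CLC family, *Clcn4* had 16.5 FPKM, *Clcn7* 9.98 FPKM, its partner *Ostm1* 8.29 FPKM and *Clcn2* 5.09 FPKM. Of the anoctamins outside the members, *Ano10* (10.7 FPKM), *Ano8* (8.20 FPKM), *Ano4* (6.10 FPKM) and *Ano6* (5.94 FPKM) were the most abundant, and *Ano2* was at 0.0818 FPKM.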
